A study of Mus musculus with 6 samples.

Results

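The collagen genes of the mouse colon were taken as every gene of the deposited expression table whose symbol has the form Col, number, a, number, and 44 of the 30330 genes in the table met that rule. They were sorted by the assembly their chains form into 11 fibrillar genes, 6 basement membrane genes (the type IV chains) and 27 genes of other classes. RNA came from the entire colon of male mice aged 12 weeks, 3 of them Tnfrsf1a-/- (R1ko, lacking the type 1 receptor for tumour necrosis factor, TNFR1) and 3 wild type (WT), with the strain given as C57Bl/6J for all 6. The sources used here do not give how the knockout was made or whether mice shared litters. Each mouse gave 1 library of polyadenylated RNA, and values are TPM, a length-normalised transcript abundance scaled to one common total per library and summed here over the transcripts of each gene. Because TPM carries no read depth, the values have no counting error attached.

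Collagens are secreted proteins whose chains wind around each other into a stiff helix, and the chains of a type are often encoded by separate genes. Fibrillar collagens carry tension in the gut wall and are made mainly by fibroblasts and smooth muscle, type IV chains form the sheet under epithelia and around vessels and muscle cells, and the remaining classes link fibrils, coat cells or anchor epithelium. Collagen RNA is much studied in the colon because chronic inflammation, in which tumour necrosis factor acts, can end in fibrosis.

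The targeted gene was present in the libraries of both genotypes. The full-length transcript of Tnfrsf1a (ENSMUST00000032491) had 23.5, 20.4 and 25.6 TPM in R1ko colons, against 67.6, 39.9 and 59.1 TPM in WT colons. Another transcript of the gene, ENSMUST00000125880, went the other way, with 18.0, 12.4 and 14.1 TPM in R1ko colons and 1.20, 1.20 and 0.890 TPM in WT colons. The gene total was 49.2, 36.5 and 46.9 TPM in R1ko colons and 71.2, 44.1 and 63.0 TPM in WT colons. There the groups overlapped, through WT replicate 2 alone. WT replicate 2 stood apart because 27.4% of its TPM lay in transcripts with no gene, against 1.86 to 7.23% in the other 5 libraries, which lowers its TPM for named genes. Results are therefore also given after median-of-ratios scaling, in which each library is divided by its median ratio to the across-library geometric mean (factors 1.06, 0.918 and 1.07 in R1ko, 1.13, 0.786 and 1.10 in WT), and as ratios within a library, which no scaling alters.

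Promoter sequences are shown for the type IV pair Col4a1 and Col4a2, whose levels held the steadiest ratio of the chain pairs examined, and for Col1a2 and Col3a1, the most abundant collagens. Each window covers 250 bases before and 50 bases after the annotated start, from RefSeq on GRCm38.p6 (mm10), written 5′ to 3′ on the gene's strand, and windows were found for 35 of the 44 genes. Capitals mark the matches to the CCAAT box, the GC-box core GGGCGG and the TATA-box core TATAAA, each searched on both strands.
Col4a1 (chr8:11312777-11313076, minus strand): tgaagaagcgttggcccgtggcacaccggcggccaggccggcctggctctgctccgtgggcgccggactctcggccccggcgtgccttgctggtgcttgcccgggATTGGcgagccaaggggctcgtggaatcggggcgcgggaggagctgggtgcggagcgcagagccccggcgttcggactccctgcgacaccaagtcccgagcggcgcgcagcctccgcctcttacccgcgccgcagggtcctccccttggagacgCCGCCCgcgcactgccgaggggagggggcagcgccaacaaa
Col4a2 (chr8:11312555-11312854, plus strand): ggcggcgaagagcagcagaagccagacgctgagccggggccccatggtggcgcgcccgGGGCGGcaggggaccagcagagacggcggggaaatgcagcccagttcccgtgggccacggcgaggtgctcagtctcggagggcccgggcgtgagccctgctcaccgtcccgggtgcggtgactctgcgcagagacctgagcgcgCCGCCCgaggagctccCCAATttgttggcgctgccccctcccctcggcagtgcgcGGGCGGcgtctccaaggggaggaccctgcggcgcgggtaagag
Col1a2 (chr6:4505368-4505667, plus strand): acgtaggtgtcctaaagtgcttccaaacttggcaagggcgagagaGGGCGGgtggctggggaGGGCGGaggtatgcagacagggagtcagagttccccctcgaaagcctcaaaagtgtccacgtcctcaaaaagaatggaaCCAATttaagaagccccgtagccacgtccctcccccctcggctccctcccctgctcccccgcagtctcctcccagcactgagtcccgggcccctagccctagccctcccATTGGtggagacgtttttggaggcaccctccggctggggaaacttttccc
Col3a1 (chr1:45311288-45311587, plus strand): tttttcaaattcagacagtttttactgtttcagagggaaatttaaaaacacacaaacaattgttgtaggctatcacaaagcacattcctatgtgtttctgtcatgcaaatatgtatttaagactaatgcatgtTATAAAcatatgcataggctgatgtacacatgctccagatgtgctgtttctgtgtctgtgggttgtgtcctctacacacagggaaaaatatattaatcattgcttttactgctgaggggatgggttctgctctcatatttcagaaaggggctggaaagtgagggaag

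Col4a1 and Col4a2 lie head to head on chromosome 8, their annotated starts overlap by 22 bases, and the windows above share 78 bases, which hold 1 GGGCGG match read by both. The same arrangement holds for Col4a3 and Col4a4, 71 bases apart on chromosome 1, and for Col4a5 and Col4a6, 1308 bases apart on chromosome X. By contrast, Col6a1 and Col6a2 run in tandem 85161 bases apart on chromosome 10, and Col3a1 faces the tail of Col5a2 across 24614 bases of chromosome 1. Among the 38 collagen windows, 23 held a GGGCGG match (60.5%, against 35.7% of all 32851 windows), 13 held CCAAT (34.2%, against 37.4%) and 5 held TATAAA (13.2%, against 13.6%). These are matches of letters in one window and describe no binding. The part of gene arrangement in the chain ratios was not tested.

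The collagens spanned a wide range in colon. Averaged over the 6 libraries, Col3a1, the type III chain of distensible tissues such as gut and vessel walls, was the highest at 231 TPM, and Col19a1 was the lowest at 0.0137 TPM. The 8 genes averaging 20 TPM or more were Col3a1, Col1a2, Col6a1, Col6a2, Col1a1, Col4a1, Col4a2 and Col6a3, and they held 81.5% of all collagen TPM. An average of 1 TPM, the limit for testing, was reached by 28 genes (7 fibrillar, 4 basement membrane and 17 other). The lowest gene inside that limit was Col7a1 at 1.08 TPM and the highest outside it was Col13a1 at 0.912 TPM. Of the 16 untested genes, 13 were under 1 TPM in every library, among them the cartilage chains Col2a1 and Col11a1 and the short-chain collagen of growth plate, Col10a1. Col2a1 was listed at 0 in all 3 WT libraries and reached 0.111 TPM in the highest R1ko library.

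**Figure D1:**
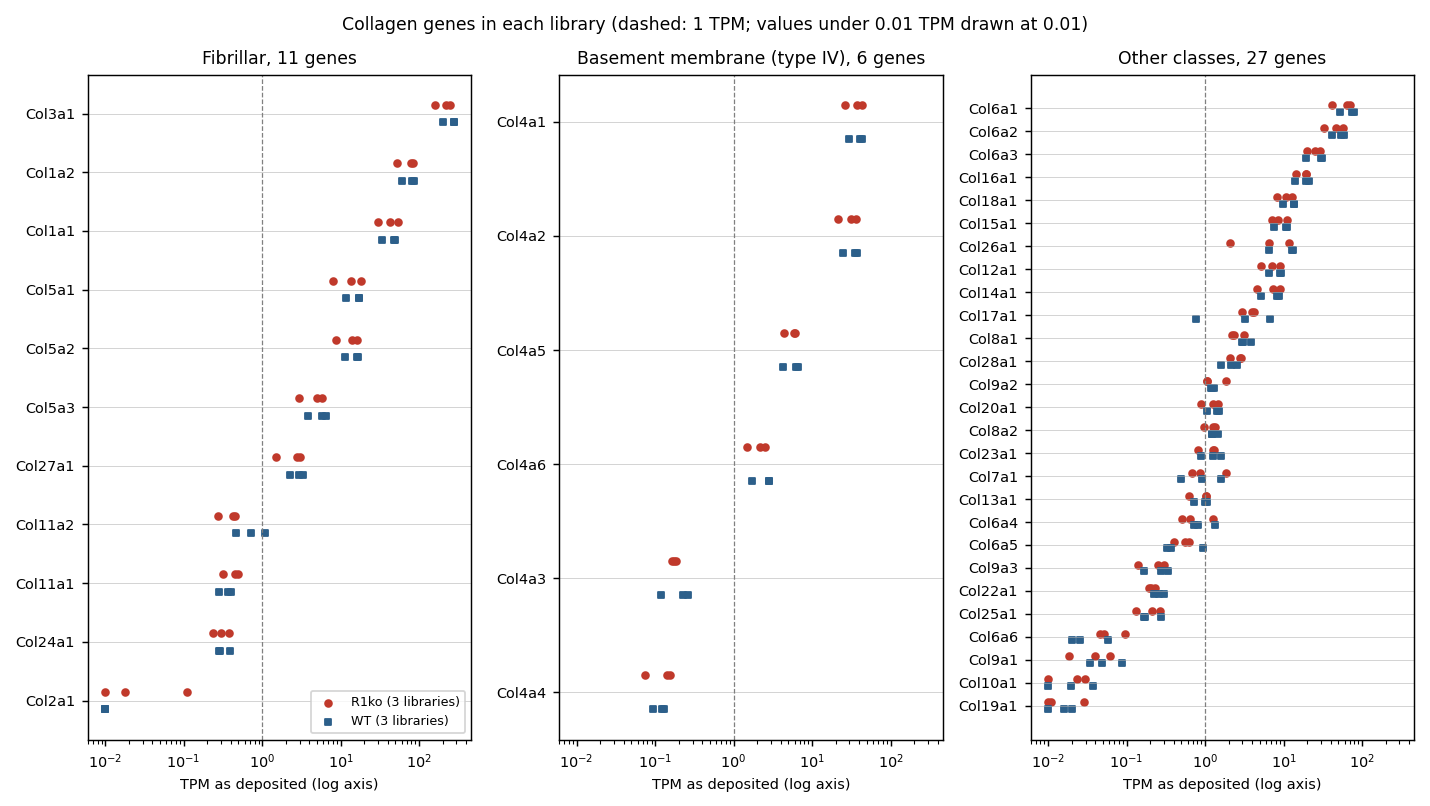
TPM of each of the 44 collagen genes in every library on a log axis, ordered by mean within the fibrillar, basement membrane and other classes; circles are R1ko and squares WT colons (3 each), and the dashed line marks 1 TPM. Col3a1 lies highest, 28 genes average 1 TPM or more, and the symbols of both genotypes overlap for each of those 28.

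No collagen gene passed the test between the genotypes. Limma on log2(TPM + 0.5), with Benjamini-Hochberg adjustment over 14248 genes and a threshold of 0.05, called 0 collagens higher and 0 lower in R1ko, where 0.0912% of all tested genes were higher and 0.175% lower. The smallest adjusted p of a collagen was 0.9999 (limma). Without adjustment, 1 of the 28 collagens (Col26a1) had a limma p under 0.05, against 526 genes or 3.69% of all tested. After scaling the count was again 0, with 0.0351% of all genes higher and 0.00702% lower, and the smallest adjusted p of a collagen was 0.391 (Col3a1, limma). The median half-width of the collagens' 95% limma intervals was 0.52 on the log2 scale as deposited and 0.36 after scaling. A difference smaller than that could be missed. The intervals are not adjusted for the number of genes, so larger differences could be missed too. Col26a1 had a log2 fold change of -0.83 as deposited and did not pass. In bulk tissue, fewer cells of a type and less RNA per cell cannot be told apart.

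The signs leaned one way. The R1ko mean was below the WT mean on the log2 scale for 24 of the 28 tested collagens (85.7%), against 44.3% of all tested genes, and the median log2 fold change was -0.12 for collagens and 0.02 for all genes. By class the median was -0.21 for 7 fibrillar genes, all 7 negative, -0.12 for 4 basement membrane genes, all 4 negative, and -0.11 for 17 other genes, 13 of them negative. After scaling the collagen median was -0.15, against -0.0027 for all genes, and again 24 of 28 were negative, against 50.6% of all genes. The lean depended on the libraries kept. Without R1ko replicate 2, 8 of 28 collagens were negative and the collagen median was 0.04, against 0.10 for all genes and 27.6% of them negative. Without replicate 2 of both genotypes, a choice made after the values were seen, 25 of 28 were negative and the collagen median was -0.12, against -0.06 for all genes and 67.9% of them negative. The collagen median minus that of all genes was thus -0.15 with all 6 libraries, -0.057 without R1ko replicate 2 and -0.055 without replicate 2 of both genotypes. R1ko replicate 2 was the lowest of the R1ko libraries for 27 of the 28 collagens as deposited (72.7% of all genes) and for 25 of 28 after scaling (36.8% of all genes). WT replicate 2 was the lowest WT library for 26 of 28 as deposited (92.9% of all genes), and for 13 of 28 after scaling (36.4% of all genes).

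**Figure D2:**
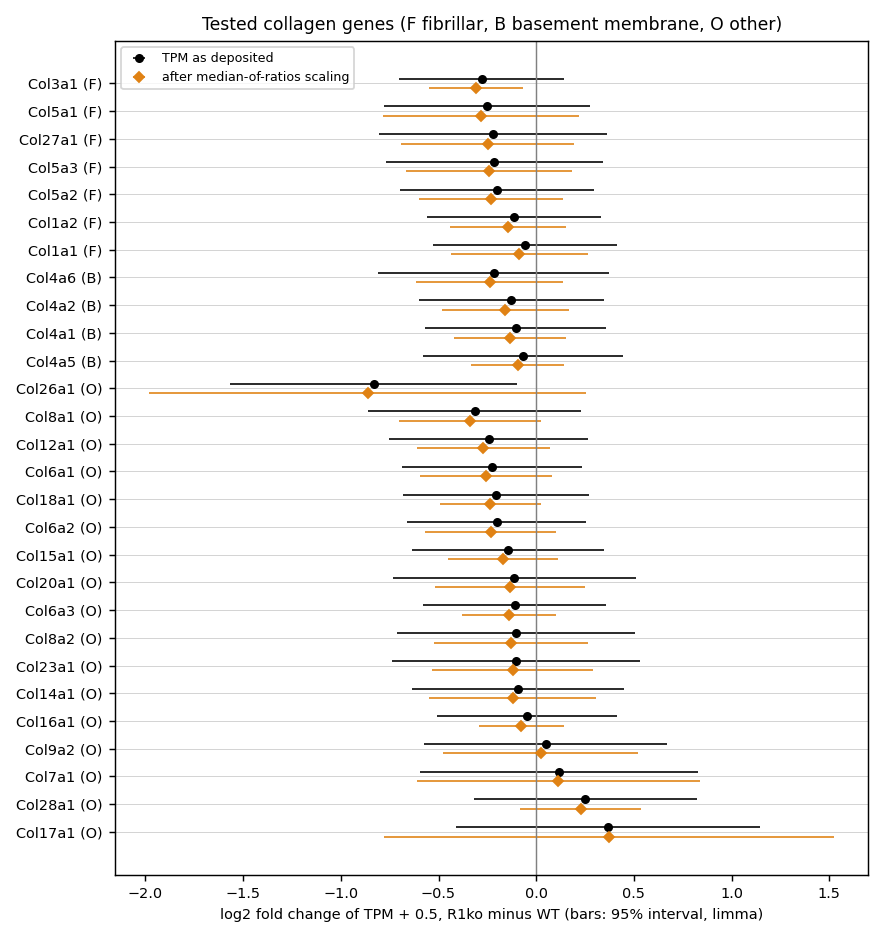
Log2 fold change of TPM + 0.5, R1ko minus WT, for the 28 tested collagens with 95% limma intervals; black circles are TPM as deposited and orange diamonds the same after median-of-ratios scaling. In both, 24 of 28 points lie left of 0, and most intervals cross 0.

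Summed over all 44 genes, collagen came to 678, 469.9 and 760.0 TPM in R1ko colons, against 804, 565 and 803 TPM in WT colons. The groups overlapped, with a difference of -12.2% and a two-sided exact permutation p of 0.5 (3 against 3 cannot go below 0.1). The fibrillar sum was 379, 266 and 429 TPM in R1ko and 455, 329 and 455 TPM in WT (-13.3%, exact permutation p = 0.5). The basement membrane sum was 77.4, 53.6 and 88.3 TPM in R1ko and 90.9, 60.1 and 85.6 TPM in WT (-7.34%, exact permutation p = 0.6). The other classes summed to 222, 149.9 and 243 TPM in R1ko and 258, 176 and 262 TPM in WT (-11.7%, exact permutation p = 0.5). In each class replicate 2 was the lowest library of both genotypes.

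Scaling drew the WT libraries together and left the R1ko libraries apart. The total was 638, 512 and 713 scaled TPM in R1ko colons and 711, 719 and 731 in WT colons, a coefficient of variation of 16.3% in R1ko against 1.41% in WT, with exact permutation p = 0.2 for the means. The scaled fibrillar sum was 356, 290.4 and 402.3 in R1ko and 402.4, 419 and 414 in WT (-15.1%). These groups did not overlap (exact permutation p = 0.1, the smallest possible), yet R1ko replicate 3 and WT replicate 1 nearly touched. With protein-coding transcripts of at least 1000 bases alone, the fibrillar difference as deposited was -9.76%, against -13.3% by gene totals. Whether those transcripts separate the groups after scaling was not tested. The scaled basement membrane sums, 72.8, 58.4 and 82.8 in R1ko against 80.4, 76.4 and 77.9 in WT, overlapped (-8.84%, exact permutation p = 0.5), and the other classes did too (-13.2%, exact permutation p = 0.2).

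**Figure D3:**
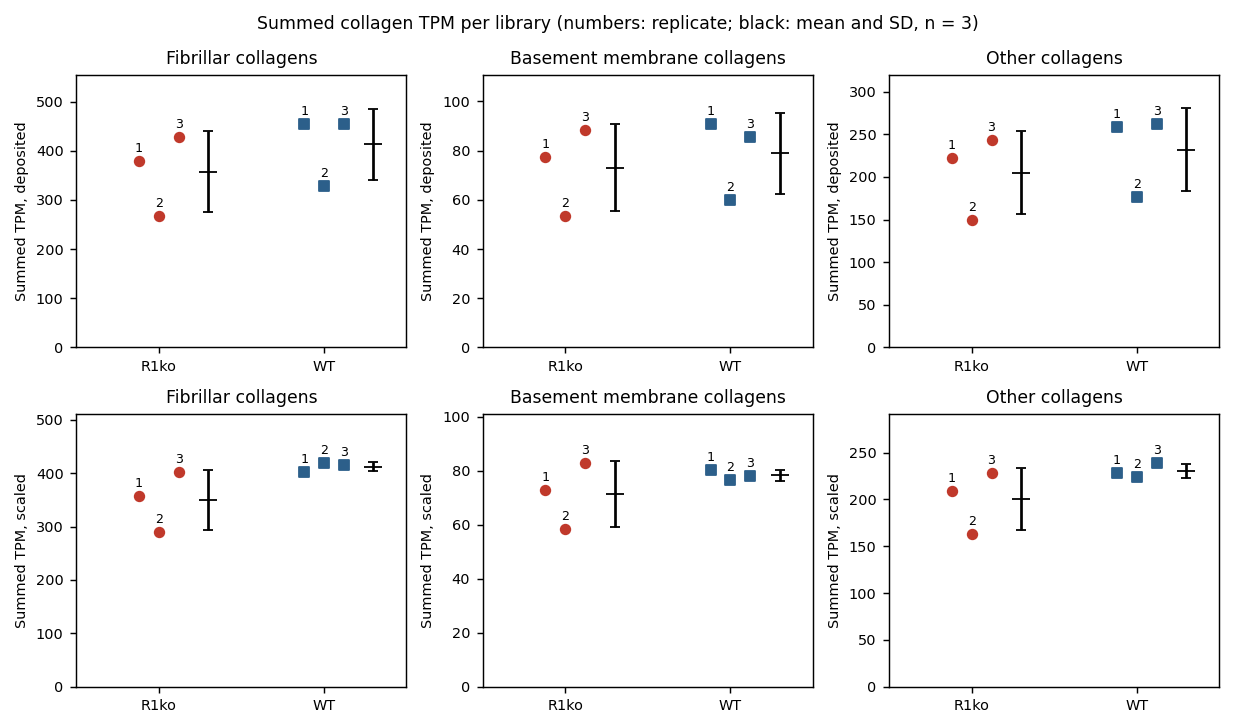
Summed TPM of the fibrillar, basement membrane and other collagens per library (numbers give the replicate), as deposited in the upper row and after median-of-ratios scaling in the lower row; black bars are mean and SD, n = 3 mice per genotype. R1ko replicate 2 is the lowest R1ko point in every panel, at 266 TPM for fibrillar collagens as deposited and 290.4 after scaling.

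Markers of the cells that make collagen were detected throughout. All 10 fibroblast markers were measured, none at 0 in all libraries, and summed to 540.3, 411.9 and 599 TPM in R1ko colons and 583, 441 and 612 TPM in WT colons. The 2 most abundant were Dcn, 258, 192 and 278 TPM in R1ko against 287, 222 and 306 TPM in WT, and Dpt, 115, 104 and 136 TPM in R1ko against 128, 102 and 133 TPM in WT. As deposited, the fibroblast marker sum was thus also lowest in replicate 2 of each genotype. So were 72.7% of all genes in R1ko and 92.9% in WT. After scaling the sum was 509, 449 and 562 in R1ko and 516, 562 and 557 in WT. Replicate 2 then stayed lowest in R1ko but not in WT. The part of fibroblasts in the collagen values was not tested. The 9 smooth muscle markers summed to 6904, 6234 and 7478 TPM in R1ko and 8598, 5987 and 7712 TPM in WT (most abundant Tagln at 2300 ± 133 TPM and Acta2 at 1420 ± 131 TPM in R1ko, against 2468 ± 430 and 1483 ± 280 TPM in WT; SD, n = 3 each). After scaling the smooth muscle sum was 6499, 6793.5 and 7015 in R1ko and 7605, 7620 and 7022 in WT. These scaled groups did not overlap, though R1ko replicate 3 and WT replicate 3 nearly touched. The part of smooth muscle in the collagen values was not tested. The 7 endothelial markers, led by Egfl7 and Pecam1, summed to 51.8 to 82.5 TPM in R1ko and 50.9 to 90.5 TPM in WT. No member of these 3 lists passed the limma test.

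The type III and type I chains form the bulk of the fibrils. Col3a1 had 220 TPM, 162 TPM and 247 TPM in R1ko colons, against 279, 204 and 276 TPM in WT colons. The ranges overlapped as deposited, and the log2 fold change was -0.28 ± 0.21 (SE, limma adjusted p = 0.9999). After scaling it had 207, 176 and 231 in R1ko and 247, 259 and 252 in WT, so that every R1ko library lay below every WT library. Col3a1 and Col18a1 were the 2 tested collagens whose groups did not overlap after scaling. Both were lower in R1ko, where 9.18% of all tested genes were lower without overlap. As deposited, their log2 fold changes by gene totals were -0.28 and -0.20. With protein-coding transcripts of at least 1000 bases alone they were -0.19 and -0.09. Whether those transcripts separate the groups after scaling was not tested. No tested collagen was higher without overlap (9.28% of all genes), and as deposited none separated in either direction (3.17% of all genes higher, 1.82% lower).

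Col1a1 and Col1a2 encode the chains of type I collagen, the main tensile fibril. Col1a2 had 78.7, 51.8 and 83.8 TPM in R1ko and 82.3, 61.5 and 85.6 TPM in WT, a log2 fold change of -0.11 ± 0.22 (SE). Col1a1 had 43.2, 30.3 and 54.6 TPM in R1ko and 48.3, 33.5 and 49.7 TPM in WT, a log2 fold change of -0.06 ± 0.23 (SE), and its highest library was an R1ko one. Neither passed the test, and both overlapped under either scaling. Col5a1 and Col5a2, whose product sits in the core of type I fibrils and sets their diameter, had log2 fold changes of -0.25 and -0.20, with Col5a1 at 13.3 ± 5.1 TPM in R1ko and 15.3 ± 3.2 TPM in WT and Col5a2 at 13.0 ± 3.8 TPM in R1ko and 14.8 ± 2.9 TPM in WT (SD, n = 3 each). Of the other fibrillar genes, Col5a3 (mean 4.99 TPM) and Col27a1 (2.64 TPM) were tested, while Col11a1, Col11a2, Col24a1 and Col2a1 were below the limit. The cartilage markers, whose list contains Col2a1 itself, summed to 1.4 to 1.8 TPM in R1ko and 1.8 to 2.3 TPM in WT, led by Hapln1 and Comp.

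Ratios between chains of one library do not depend on scaling, and 9 such ratios were compared between genotypes (Benjamini-Hochberg adjusted over the 9, every adjusted p was 0.8). Col1a1 over Col1a2 was 0.549, 0.585 and 0.651 in R1ko and 0.586, 0.545 and 0.580 in WT, and the groups overlapped (exact permutation p = 0.5). Col3a1 over Col1a1 was 5.09, 5.34 and 4.52 in R1ko and 5.78, 6.07 and 5.56 in WT, without overlap (-14.2%, exact permutation p = 0.1, the smallest possible). Counting protein-coding transcripts of at least 1000 bases alone, a choice made after the values were seen, the same ratio was 3.45, 3.55 and 3.24 in R1ko and 3.37, 4.12 and 3.77 in WT, where the groups overlapped (exact permutation p = 0.3). Col5a1 over Col5a2 ranged from 0.907 to 1.13 in R1ko and from 1.02 to 1.04 in WT (exact permutation p = 0.7).

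**Figure D4:**
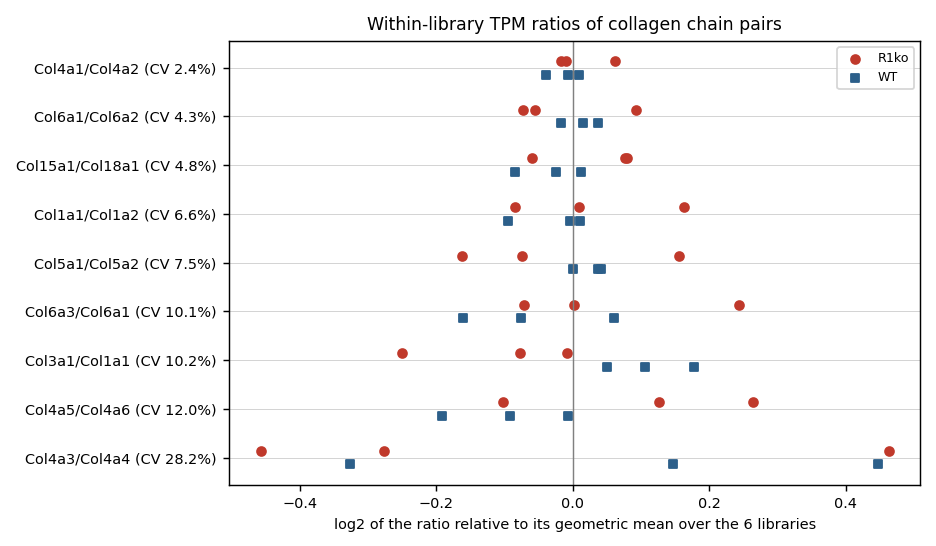
Within-library TPM ratio of 9 collagen chain pairs, as log2 of the ratio over its geometric mean across the 6 libraries; circles are R1ko and squares WT colons, and the coefficient of variation over the 6 libraries stands beside each pair. Col4a1/Col4a2 spreads least and Col4a3/Col4a4 most, and Col3a1/Col1a1 is the pair whose genotypes do not overlap.

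Col4a1 and Col4a2 encode the chains of the basement membrane network found in nearly all tissues. Col4a1 had 37.1, 26.2 and 43.0 TPM in R1ko and 43.9, 29.3 and 40.7 TPM in WT (log2 fold change -0.10 ± 0.23, SE). Col4a2 had 31.6, 21.2 and 36.8 TPM in R1ko and 37.2, 24.6 and 35.4 TPM in WT (log2 fold change -0.13 ± 0.23, SE). Both were lowest in replicate 2 of each genotype and overlapped between genotypes. Their ratio was 1.18, 1.24 and 1.17 in R1ko and 1.18, 1.19 and 1.15 in WT, a coefficient of variation over the 6 libraries of 2.40%, the smallest of the 9 ratios. Col4a5 over Col4a6, the pair of epithelial and smooth muscle basement membranes, was 2.33, 3.01 and 2.73 in R1ko and 2.35, 2.49 and 2.19 in WT (variation 12.0%, exact permutation p = 0.3). Col4a5 averaged 5.40 ± 0.87 TPM in R1ko and 5.73 ± 1.27 TPM in WT, and Col4a6 averaged 2.05 ± 0.53 TPM in R1ko and 2.47 ± 0.65 TPM in WT (SD, n = 3 each). Col4a3 and Col4a4, known from the kidney glomerulus, averaged 0.188 and 0.119 TPM over the 6 libraries, and their ratio varied by 28.2%.

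The basement membrane part of the collagen pool separated the genotypes by gene totals and not by long coding transcripts. Its share of collagen TPM was 11.4, 11.4 and 11.6% in R1ko and 11.3, 10.6 and 10.7% in WT, without overlap, a difference of 0.61 percentage points (exact permutation p = 0.1, the smallest possible). With protein-coding transcripts of at least 1000 bases alone the share was 13.6, 13.7 and 13.5% in R1ko and 14.1, 12.7 and 12.8% in WT, and the groups overlapped (exact permutation p = 0.4). The fibrillar share was 55.8, 56.7 and 56.4% in R1ko and 56.6, 58.2 and 56.7% in WT (exact permutation p = 0.3). The share of the other classes was 32.7, 31.9 and 32.0% in R1ko and 32.1, 31.1 and 32.7% in WT (exact permutation p = 0.8). Over the 6 libraries these shares had coefficients of variation of 1.40% (fibrillar), 3.77% (basement membrane) and 1.83% (other). The collagen sum varied more over the 6 libraries, by 20.2% as deposited and 12.6% after scaling. This did not hold within WT, where the scaled sum varied by 1.41%. The WT shares varied by 1.62% (fibrillar), 3.54% (basement membrane) and 2.41% (other).

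Type VI collagen forms beaded filaments beside cells, from chains encoded mainly by Col6a1, Col6a2 and Col6a3. Col6a1 had 65.2, 41.1 and 71.0 TPM in R1ko and 73.6, 53.2 and 78.2 TPM in WT (log2 fold change -0.23 ± 0.23, SE). Col6a2 had 46.6, 32.5 and 57.0 TPM in R1ko and 54.7, 41.0 and 59.0 TPM in WT (-0.20 ± 0.22, SE). Col6a3 had 25.2, 19.8 and 28.9 TPM in R1ko and 31.2, 19.3 and 30.1 TPM in WT (-0.11 ± 0.23, SE). All 3 overlapped between genotypes. Col6a1 over Col6a2 was 1.40, 1.26 and 1.25 in R1ko and 1.35, 1.30 and 1.33 in WT (variation 4.26%, exact permutation p = 0.8). Col6a3 over Col6a1 was 0.387, 0.481 and 0.407 in R1ko and 0.424, 0.363 and 0.385 in WT (exact permutation p = 0.4). With protein-coding transcripts of at least 1000 bases alone it was 0.228, 0.221 and 0.215 in R1ko and 0.197, 0.208 and 0.190 in WT, without overlap (exact permutation p = 0.1, adjusted 0.75), so this comparison changes with the transcripts counted.

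The multiplexins Col15a1 and Col18a1 sit in the basement membrane zone, and the end of the Col18a1 protein is released as endostatin. Col18a1 had 10.9, 8.34 and 12.9 TPM in R1ko and 13.7, 9.89 and 13.4 TPM in WT, and after scaling 10.3, 9.09 and 12.1 in R1ko and 12.2, 12.6 and 12.2 in WT. The scaled groups separated by a narrow margin, with a scaled log2 fold change of -0.23 (limma adjusted p = 0.475). Col15a1 over Col18a1 was 0.771, 0.847 and 0.850 in R1ko and 0.811, 0.758 and 0.790 in WT (exact permutation p = 0.3). Among collagens that bind to fibrils, Col12a1 had 7.04, 5.12 and 9.01 TPM in R1ko and 9.37, 6.51 and 9.13 TPM in WT (log2 fold change -0.24 ± 0.25, SE). Col8a1, a short-chain collagen of vessel walls, had 2.34, 2.19 and 3.10 TPM in R1ko and 3.80, 2.96 and 3.05 TPM in WT (-0.31 ± 0.27, SE). Both overlapped between genotypes. Col9a2, a cartilage fibril-associated chain, averaged 1.32 ± 0.45 TPM in R1ko and 1.23 ± 0.05 TPM in WT (SD, n = 3 each). Col28a1, known mainly from peripheral nerve, had 2.80, 2.07 and 2.84 TPM in R1ko and 2.57, 1.58 and 2.15 TPM in WT (0.25 ± 0.28, SE).

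Col17a1 and Col7a1 anchor stratified epithelium, through hemidesmosomes and anchoring fibrils. Col17a1 had 3.996, 4.17 and 2.98 TPM in R1ko colons, against 6.69, 0.762 and 3.26 TPM in WT colons, the largest positive log2 fold change among the tested collagens at 0.37 ± 0.38 (SE, limma adjusted p = 0.9999). The value turned to -0.39 without replicate 2 of both genotypes. Col7a1 had 1.87, 0.689 and 0.860 TPM in R1ko and 1.62, 0.492 and 0.924 TPM in WT (0.12 ± 0.35, SE). The 8 squamous epithelium markers, led by Krt14 and Krt13 and none at 0 in all libraries, summed to 478, 396 and 470.4 TPM in R1ko and 526, 126 and 419.6 TPM in WT. WT replicate 2 was thus lowest for Col17a1 and for these markers alike, and the part of squamous tissue in the Col17a1 values was not tested. The 6 hair follicle markers summed to 5.9 to 13.4 TPM in R1ko and 12.6 to 85.9 TPM in WT. As deposited, 3 of them passed as lower in R1ko (Krt71 and Krt25 the most abundant), where 0.175% of all tested genes did. None of the 6 passed after scaling. The 10 skeletal muscle markers, led by Tnnt3 and Ckm, summed to 807, 2061 and 1104 TPM in R1ko and 2125, 139 and 461 TPM in WT, with none past the threshold.

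Col26a1, a collagen of little known function, had 11.8, 2.05 and 6.62 TPM in R1ko colons, against 12.7, 6.56 and 13.1 TPM in WT colons. Its log2 fold change was the largest in size among the tested collagens, -0.83 ± 0.36 (SE, limma adjusted p = 0.9999), and the groups overlapped, since R1ko replicates 1 and 3 both lay above WT replicate 2. Without R1ko replicate 1, with 2 R1ko mice left, Col26a1 passed as lower in R1ko (log2 fold change -1.34, limma adjusted p = 0.0021). That fit called 0.878% of all genes lower and 0.527% higher. Without R1ko replicate 2 the log2 fold change was -0.21. Nearly all of this signal, 99.4% of the gene's TPM, lay in 1 transcript of 578 bases and 2 exons that GENCODE M21 annotates as a retained intron (ENSMUST00000147083, chromosome 5, bases 136754246 to 136755392 of mm10, minus strand). The full-length coding messages therefore hold almost none of the Col26a1 signal.

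Short transcripts carried part of the signal of other collagens too. Of the mean TPM of Col6a3, 48.3% lay in a retained-intron transcript of 646 bases (ENSMUST00000150769), and of Col3a1, 33.1% lay in a coding transcript of 737 bases from 6 exons in the 3′ part of the gene (ENSMUST00000186021). That short transcript had 70.1, 54.8 and 66.6 TPM in R1ko and 115.6, 65.0 and 87.5 TPM in WT (log2 fold change -0.45 ± 0.22, SE, limma adjusted p = 0.996). The full-length Col3a1 transcript (ENSMUST00000087883, 51 exons) had 148, 107 and 176 TPM in R1ko and 162, 137 and 188 TPM in WT (-0.19 ± 0.21, SE). After scaling, the log2 fold change of the short transcript was -0.46 (limma adjusted p = 0.341, the smallest of a collagen transcript). That of the full-length transcript was -0.20 (limma adjusted p = 0.601). For 3 tested genes, Col26a1, Col27a1 and Col7a1, over 50% of the TPM lay in transcripts not annotated as protein coding. By contrast, 1 transcript held 99.6% of Col1a1, 99.8% of Col4a1 and 99.9% of Col6a1. Reads that isoforms share are divided by estimation, so values of single transcripts are less certain than gene totals.

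**Figure D5:**
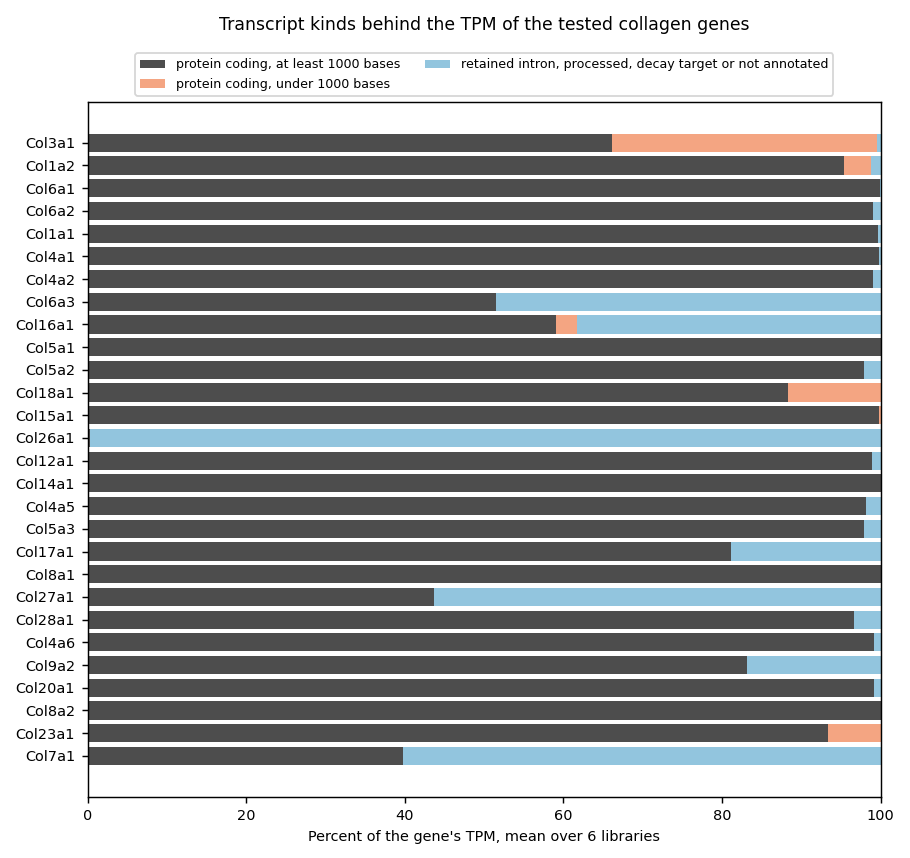
Percent of each tested collagen gene's TPM, averaged over the 6 libraries, in protein-coding transcripts of at least 1000 bases (dark), shorter protein-coding transcripts (orange) and transcripts of other kinds (blue), by GENCODE M21. Col26a1 is almost all blue, 48.4% of Col6a3 is blue and 33.1% of Col3a1 lies in a single short coding transcript.

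Tested one by one, 41 collagen transcripts of 27 genes averaged 1 TPM or more, and 0 passed in either direction, where 0.029% of all 31056 tested transcripts were higher and 0.0129% lower. Without adjustment 1 of the 41 had a limma p under 0.05, against 1558 of all transcripts, and after scaling again 0 passed, where 0.0354% of all transcripts were higher and 0.00966% lower. The remaining 3 of the 5 most abundant collagen transcripts were the main messages of Col1a2 (ENSMUST00000031668, log2 fold change -0.14), Col6a1 (ENSMUST00000001147, -0.22) and Col1a1 (ENSMUST00000001547), and none separated the genotypes.

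The machinery that makes, exports and cross-links collagen showed no called gene either. In the 9 pathway lists no member passed in either direction, as deposited or after scaling. Among modification and folding enzymes 9 of 18 tested members were negative (median log2 fold change -0.0063). The smallest p values there belonged to P4ha3, a prolyl hydroxylase subunit, and P3h2. P4ha3 had 0.930 ± 0.300 TPM in R1ko and 1.43 ± 0.21 TPM in WT (SD, n = 3 each). It was lower in R1ko without overlap, as were 1.82% of all tested genes. P3h2 had 7.03 ± 1.83 TPM in R1ko and 8.78 ± 2.69 TPM in WT (SD, n = 3 each), and its groups overlapped. Among export genes 4 of 9 were negative (median 0.09), led by Creb3l1, a transcription factor of secretory capacity, at 74.4 ± 5.8 TPM in R1ko and 62.5 ± 14.9 TPM in WT, and Sar1b, a coat GTPase, at 98.9 ± 3.0 TPM in R1ko and 86.8 ± 23.4 TPM in WT. Procollagen processing had 4 of 6 negative (median -0.15), while its most abundant members, the intestinal meprin subunits, had positive values. Mep1a had 138, 125 and 127 TPM in R1ko and 104.5, 93.4 and 119.9 TPM in WT. It was higher in R1ko without overlap, as were 3.17% of all tested genes. Mep1b averaged 42.5 ± 2.4 TPM in R1ko and 34.6 ± 5.3 TPM in WT.

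Lists of proteins that work beside collagen in the matrix leaned to negative values as the collagens did. All 6 cross-linking enzymes were negative (median -0.20), with Loxl2 at 13.2 ± 3.4 TPM in R1ko and 15.7 ± 2.5 TPM in WT and Loxl3 at 1.92 ± 1.11 TPM in R1ko and 2.24 ± 0.34 TPM in WT (SD, n = 3 each). Of the proteoglycans that coat fibrils 7 of 9 were negative (median -0.17), with Bgn at 79.3 ± 18.1 TPM in R1ko and 92.8 ± 11.5 TPM in WT and Podn at 5.77 ± 1.23 TPM in R1ko and 7.13 ± 1.66 TPM in WT. Of the basement membrane partners, laminins among them, 14 of 15 were negative (median -0.15), with Lamb1 at 17.3, 12.0 and 21.7 TPM in R1ko and 22.5, 18.7 and 25.2 TPM in WT, and Lama2 at 2.09 ± 0.76 TPM in R1ko and 2.52 ± 0.22 TPM in WT. All 7 tested collagen-degrading genes were negative (median -0.15), with Mmp2, a gelatinase, at 25.8 ± 7.2 TPM in R1ko and 33.0 ± 6.9 TPM in WT and Ctsk, a collagen-cleaving cathepsin, at 9.99 ± 1.86 TPM in R1ko and 11.5 ± 2.2 TPM in WT. Without R1ko replicate 2 the medians of these 4 lists were 0.038 for cross-linking, -0.08 for proteoglycans, 0.018 for basement membrane partners and -0.022 for collagen breakdown, against 0.10 for all genes. Without replicate 2 of both genotypes they were -0.13, -0.18, -0.10 and -0.19 in the same order, against -0.06 for all genes.

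Receptors and profibrotic signals were mixed. Of the collagen receptors 7 of 10 were negative (median -0.06). Ddr1, the collagen-binding tyrosine kinase of epithelia, had 81.8, 69.7 and 75.2 TPM in R1ko and 66.9, 41.5 and 66.5 TPM in WT. Its log2 fold change was 0.40 ± 0.21 (SE, limma adjusted p = 0.9999). It was higher in R1ko without overlap, as were 3.17% of all tested genes. Lair1, an inhibitory receptor of immune cells, had 1.67 ± 0.20 TPM in R1ko and 2.21 ± 0.46 TPM in WT. Of the profibrotic genes 6 of 14 were negative (median 0.03). Postn, a matricellular protein of fibroblasts, had 177, 133 and 174 TPM in R1ko and 257, 175 and 238 TPM in WT (-0.46 ± 0.20, SE, limma adjusted p = 0.9999), overlapping by the closeness of R1ko replicate 1 and WT replicate 2.

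Marker sums of the remaining cell types are given as the background against which the collagen values stand, and their part in those values was not tested. The 12 colon epithelium markers, led by Lgals4 and Krt8, summed to 12190 to 13227 TPM in R1ko and 9768 to 13496 TPM in WT. The 7 adipocyte markers, led by Fabp4 and Cfd, summed to 185 to 254.5 TPM in R1ko and 55.8 to 154 TPM in WT, and Cfd passed as higher in R1ko (82.7 ± 12.9 TPM, against 31.5 ± 16.7 TPM in WT; SD, n = 3 each, limma adjusted p = 0.0082). The 5 lymphoid stroma markers, led by Ccl21a and Cxcl13, summed to 42.0 to 72.1 TPM in R1ko and 63.1 to 87.2 TPM in WT, and Cxcl13 passed as lower in R1ko (3.67 ± 1.07 TPM, against 9.57 ± 2.46 TPM in WT; limma adjusted p = 0.0191). After scaling none of these marker genes passed.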

How the data were processed

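Whole-colon RNA of 3 R1ko and 3 WT mice was analysed. The authors deposited 1 table of TPM, made per the submitters' processing notes with kallisto 0.43.1 on mm10 and tested there with sleuth, whose results were not used. The sources used here do not name the transcript set. Each of 131206 transcripts was taken once (1433 repeated lines) and TPM summed per gene symbol. Since the columns hold no reads, limma 3.58.1 (R 4.3.3) was run on log2(TPM + 0.5), with a variance trend, for genes averaging 1 TPM or more; fold changes on that scale understate the change of low genes. The procedure was tested on simulated data. Sums, shares and ratios were compared by two-sided exact permutation tests (scipy 1.17.1). The labels describe the 3 libraries of a genotype as separate mice. Libraries correlated at 0.971 to 0.987 and held 13661 to 14588 genes of at least 1 TPM. Transcript kinds and gene positions come from GENCODE M21.

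The collagen genes, the pathway and marker lists and the tests were chosen with earlier results of these data known. Collagens averaging 20 TPM or more, those past the threshold, the 5 largest log2 fold changes in each direction (4 were positive) and chain partners are named; lists give members past the threshold or else the 2 with the smallest p, marker lists their 2 most abundant members. A pathway gene and a marker list that these rules would name are not reported here. Alternatives changed the pseudocount, filter, scaling, variance trend, threshold, transcripts summed, the classes and a block on replicate number, and left out each library in turn.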

Additional observations from a re-analysis of the deposited data

How the results depend on the processing

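The count of 0 collagens higher and 0 lower held under pseudocounts of 0.1 and 1, no filter, a filter at 5 TPM, 3 other scalings, no variance trend, a threshold of 0.1 for the adjusted p, protein-coding transcripts of at least 1000 bases and without replicate 2 of both genotypes. Counting the multiplexins with the basement membrane class, or only transcripts of at least 0.1 TPM in every library, kept every direction of the sums, shares and ratios recomputed. Leaving out 1 library at a time, the lower count ran from 0 to 1, the 1 being Col26a1 without R1ko replicate 1. Over all genes the calls numbered 38, against 24 with a pseudocount of 0.1, 2 with no filter, 142 with a filter at 5 TPM, 6 after median-of-ratios scaling, 4 after rescaling over transcripts with a gene, 7 after quantile normalization, 107 with coding transcripts of at least 1000 bases, and 20 to 298 with 1 library left out. Whether the replicate numbers pair the mice could not be settled with 3 mice per genotype. Correlations of same-numbered deviations were 0.052, 0.132 and 0.183. R1ko replicate 1 was closest to another number, and R1ko replicates 2 and 3 were closest to their own. A fit with the replicate block called 71 genes, 0 of them collagens. Rescaling over transcripts with a gene moved the median of all genes to -0.10 and of collagens to -0.25, and Col9a2 to -0.047. With coding transcripts of at least 1000 bases the share difference of the other classes was -4.0e-05 points and Col15a1/Col18a1 differed by -3.38%. Leaving out libraries turned the sign of log2 fold changes that were never called: Col17a1 ran from -0.31 to 0.94, Col1a1 from -0.25 to 0.17, Col1a2 from -0.26 to 0.10, Col4a1 from -0.28 to 0.095, Col4a2 from -0.31 to 0.095, Col4a5 from -0.25 to 0.060, Col5a1 from -0.51 to 0.062, Col5a2 from -0.37 to 0.047, Col6a1 from -0.40 to 0.014, Col6a2 from -0.38 to 0.016, Col6a3 from -0.33 to 0.037, Col7a1 from -0.15 to 0.32, Col9a2 from -0.14 to 0.15 and Loxl3 from -0.60 to 0.14. The main transcripts ran from -0.35 to 0.0032 (ENSMUST00000087883), -0.29 to 0.069 (ENSMUST00000031668), -0.39 to 0.017 (ENSMUST00000001147) and -0.26 to 0.16 (ENSMUST00000001547). The basement membrane sum ran from -17.2 to 5.04%, the other sum from -21.2 to 0.131%, and the other share from -0.18 to 0.58 points. Ratio differences ran from -0.599 to 8.40% (Col1a1/Col1a2), -0.077 to 2.72% (Col4a1/Col4a2), -28.7 to 2.62% (Col4a3/Col4a4), -9.45 to 1.36% (Col5a1/Col5a2) and -5.10 to 0.622% (Col6a1/Col6a2). Without replicate 2 of both genotypes, the values with the other sign were -0.39 for Col17a1, 0.090 for Loxl3 and -0.020 for Sar1b (log2), -0.034 points for the share of the other classes, 0.485% for Col5a1/Col5a2 and -1.92% for Col6a3/Col6a1. For each of these the cause was not tested. With 3 mice per genotype and no read depth, small differences are not resolved.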

Other observations

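These values were chosen after they were seen. The short coding transcript of Col18a1 (ENSMUST00000156009, 717 bases, 6 exons) held 9.01, 10.2 and 4.93% of the gene's TPM in R1ko colons, against 13.9, 16.1 and 16.0% in WT colons, without overlap (exact permutation p = 0.1, the smallest possible). Its level was 0.982, 0.847 and 0.633 TPM in R1ko and 1.90, 1.60 and 2.15 TPM in WT (log2 fold change -0.85 ± 0.32, SE, limma adjusted p = 0.934). The collagen sum divided by the fibroblast marker sum of the same library was 1.25, 1.14 and 1.27 in R1ko and 1.38, 1.28 and 1.31 in WT, without overlap (-7.73%, exact permutation p = 0.1). For the fibrillar collagens alone it was 0.701, 0.647 and 0.716 in R1ko and 0.780, 0.746 and 0.744 in WT (-9.08%, exact permutation p = 0.1). Neither quantity depends on library scaling. The ratios to the marker sum were not computed with protein-coding transcripts of at least 1000 bases alone. Dcn, the most abundant of the fibroblast markers, is also the most abundant of the listed proteoglycans that coat fibrils.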
